A study of Mus musculus with 18 samples.

Results

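The genes examined here belong to the circadian clock as its repressors and PAR bZIP outputs, and were followed through cold storage and reperfusion of the explanted mouse heart. They are the period genes Per1, Per2 and Per3, the cryptochromes Cry1 and Cry2, the PAR bZIP factors Dbp, Tef and Hlf, and the REV-ERB receptors Nr1d1 and Nr1d2. The 10 were taken by name from the 34989 genes in the data, and for each gene the estimated counts of all its transcripts were summed in every library. They were chosen by measured values, because the fall of several of them after storage had already been seen in these libraries. Their changes from 0 h are therefore a description here, without a test. The differences between LV and RV and between 8 h and 4 h were not themselves used in choosing them and are tested. These tests share the stored libraries with the changes that were used, so they are not independent of the choice.

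Hearts came from mice labelled C57B/L6 and 12 weeks old, with no transgene or other treatment named. After an infusion of HTK, a cold preservation solution, each heart was kept on ice in HTK for 0, 4 or 8 h and then perfused ex vivo with Krebs buffer for 1 h. LV and RV were frozen separately, so that there were 6 groups of 3 libraries, 18 in all. The 0 h hearts were perfused like the others, and an unperfused heart is not among the groups. The hour of the day at which a heart was taken or frozen is not given in the sources used here, and the hours of storage and the hour of freezing cannot be told apart by this design. In tissue, fewer cells of a type and less of an RNA in each cell cannot be told apart either.

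The clock is a loop of transcription and translation that runs in nearly every cell, the cardiomyocyte included. BMAL1, encoded by Arntl, and its partners CLOCK and NPAS2 bind E-boxes and switch on the Per and Cry genes, whose proteins then return to the nucleus and block the activators. The same E-box drive acts on Nr1d1 and Nr1d2, which repress Arntl, and on Dbp, Tef and Hlf, which activate genes through the D-box that the repressor NFIL3 also binds. In the heart this output sets a daily rhythm in metabolic and ion channel genes.

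The promoters of the members were searched for the letters of these elements. RefSeq start sites (GRCm38.p6) were found for 9 of the 10 members, in 11 windows of 250 bases upstream, and Per2 had none in the table. The letters searched on both strands were the E-box CACGTG, its variant CACGTT, the D-box TTATGNAA, the CRE TGACGTCA and the ROR element TAGGTCA. Over all 32851 promoter windows these were held by 6.02%, 3.85%, 3.07%, 1.55% and 2.23%. At least 1 of them lay in a window of 7 of the 9 members, and none in those of Dbp and Nr1d2. A few stretches are shown, 1 each for a period gene, a PAR bZIP gene and a cryptochrome, on the strand of the gene, ending at its start or, for Cry1, before its first annotated exon, with the matches in capitals. Per3, chr4:151044666-151044915, minus strand, held the D-box letters 205 and 158 bases before the start. Tef, chr15:81811164-81811413, plus strand, held an E-box 138 bases before the downstream of its start sites. The window of its upstream start, not shown, also held an E-box, 127 bases before that start. Cry1, chr10:85185065-85185304, minus strand, held an E-box 60 bases and the variant, read on the other strand, 79 bases before the RefSeq start.
Per3: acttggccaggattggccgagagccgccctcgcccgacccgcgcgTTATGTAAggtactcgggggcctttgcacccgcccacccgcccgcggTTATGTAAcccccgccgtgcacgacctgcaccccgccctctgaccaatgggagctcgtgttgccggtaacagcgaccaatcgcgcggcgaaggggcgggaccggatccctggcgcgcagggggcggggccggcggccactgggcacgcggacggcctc
Tef: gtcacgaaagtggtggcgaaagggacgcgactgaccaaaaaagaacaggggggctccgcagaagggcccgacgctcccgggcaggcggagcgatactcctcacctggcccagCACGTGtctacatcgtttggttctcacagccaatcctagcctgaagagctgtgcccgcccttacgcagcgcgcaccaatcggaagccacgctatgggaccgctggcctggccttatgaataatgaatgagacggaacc
Cry1: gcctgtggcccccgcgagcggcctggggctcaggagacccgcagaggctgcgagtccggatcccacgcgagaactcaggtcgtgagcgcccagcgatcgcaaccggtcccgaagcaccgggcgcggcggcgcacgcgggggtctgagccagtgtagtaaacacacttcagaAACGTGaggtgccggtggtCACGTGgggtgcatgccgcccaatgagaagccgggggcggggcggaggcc
A match is a description of these letters and not of a bound site.

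The libraries held from 22552581 to 46236771 estimated counts. Levels are read counts scaled to the TMM-adjusted library size (CPM), and levels between genes are compared as TPM, which also divides by transcript length. A gene was called when its edgeR quasi-likelihood p, adjusted over all genes tested by Benjamini-Hochberg, was under 0.1 and its fold change over 1.5. Nothing states that the 3 libraries of a group came from separate hearts, so that a p measures the spread between these libraries. All 10 members passed the filter on low counts in every fit, and their levels came to at least 5.21 CPM in each library.

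At 0 h the members differed 20.6-fold in mean TPM in LV and 23.0-fold in RV. In LV the order of the levels ran from Tef (74.5 ± 20.5 TPM, SD, n = 3) and Dbp (72.6 ± 24.8) through Nr1d1 (60.7 ± 5.54) and Nr1d2 (50.2 ± 7.65). It went on with Per1 (19.8 ± 0.661), Cry2 (15.9 ± 3.62), Per3 (10.2 ± 3.61), Per2 (7.04 ± 2.14), Hlf (6.95 ± 1.72) and Cry1 (3.63 ± 0.936). Neighbours overlapped except at the steps from Nr1d2 to Per1 and from Hlf to Cry1, so the data give 3 tiers in LV rather than 10 ranks. The same steps were free of overlap in RV between Nr1d2 and Per1 and above Cry1, with 1 more between Nr1d1 and Nr1d2. After 8 h in LV, Per3 stood last at 1.59 ± 0.0910 TPM and Cry1 at 4.21 ± 0.552 TPM had passed Hlf, Per2 and Per3.

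Per3, Dbp, Per2, Tef and Hlf were lower in all 12 stored libraries than in any 0 h library of the same ventricle. These are changes by which the genes were chosen. The share of all genes whose groups lie apart in this way was not counted, here or in the comparisons below. Per3, a period gene, measured 24.8, 53.9 and 43.6 CPM in the LV libraries at 0 h, 6.81, 5.21 and 7.39 CPM at 4 h, and 7.59, 6.85 and 7.85 CPM at 8 h. In RV it measured 26.0, 59.6 and 51.4 CPM at 0 h, 6.79, 7.27 and 11.9 CPM at 4 h, and 6.45, 6.62 and 8.71 CPM at 8 h. The stored libraries lay close together and the 0 h libraries spread over more than a doubling, with replicate 1 lowest in both ventricles. Its fitted log2 change was -2.65 (SE 0.27) and -2.45 (0.27) in the stored LV groups, and -2.38 (0.34) and -2.63 (0.34) in those of RV. It ranked between 3 and 19 among all genes tested, from the largest decrease.

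Dbp, a PAR bZIP factor with a strong daily rhythm in most tissues, measured 58.4, 119.1 and 92.1 CPM in LV at 0 h, 10.3, 11.7 and 30.1 CPM at 4 h, and 11.7, 10.9 and 31.0 CPM at 8 h. In RV the values were 76.4, 135.6 and 114.1 CPM at 0 h, 13.4, 14.7 and 38.5 CPM at 4 h, and 10.1, 14.4 and 23.3 CPM at 8 h. Replicate 3 was the highest stored library at both times and in both ventricles, and it still lay under every 0 h library. The fitted log2 change was -2.37 (SE 0.54) and -2.33 (0.54) in the stored LV groups, and -2.27 (0.47) and -2.74 (0.48) in those of RV. The SE of Dbp was the widest of the members in each of these comparisons.

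Per2, whose protein is a core part of the repressor complex, moved less far. It measured 25.8, 41.4 and 29.4 CPM in LV at 0 h, 17.3, 8.45 and 10.2 CPM at 4 h, and 9.59, 7.25 and 12.2 CPM at 8 h. In RV it measured 30.8, 45.0 and 38.6 CPM at 0 h, 19.7, 12.7 and 16.8 CPM at 4 h, and 13.8, 13.3 and 19.3 CPM at 8 h. The groups at 0 h and after storage did not overlap, and the 4 h and 8 h groups did. In LV the log2 change was -1.42 (SE 0.30) and then -1.73 (0.31), and in RV -1.20 (0.23) and then -1.28 (0.23).

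Tef and Hlf, the other PAR bZIP factors, moved by similar amounts. Tef measured 106.0, 183.0 and 155.5 CPM in LV at 0 h and between 56.9 and 76.5 CPM in the stored LV libraries, and 121.7, 207.3 and 160.6 CPM in RV against 50.3 to 84.4 CPM. Hlf measured 20.6, 31.2 and 24.3 CPM in LV at 0 h and between 9.40 and 12.4 CPM after storage, and 26.8, 41.1 and 28.7 CPM in RV against 6.70 to 17.0 CPM. In both genes the lowest 0 h library, replicate 1, stood above every stored library of its ventricle. The log2 changes of Tef ran from -1.12 (SE 0.20) in LV at 4 h to -1.49 (0.23) in RV at 8 h, and those of Hlf from -1.12 (0.29) in RV at 4 h to -1.54 (0.29) in RV at 8 h. The lowest Hlf value, 6.70 CPM in RV replicate 3 at 8 h, came from the library with the lowest summed level of 6 cardiomyocyte genes, 26354 CPM against 39652 to 64478 CPM in the other 17. In that library Myh6, Tnnt2, Actc1, Ryr2 and Myl3 stood lowest of the RV libraries at 8 h, and Myl2, at 4292 CPM, stood highest. Myh6, the largest part of the sum, stood at 12721 CPM there. The part of the cardiomyocyte genes in the value of Hlf was not tested.

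**Figure D1:**
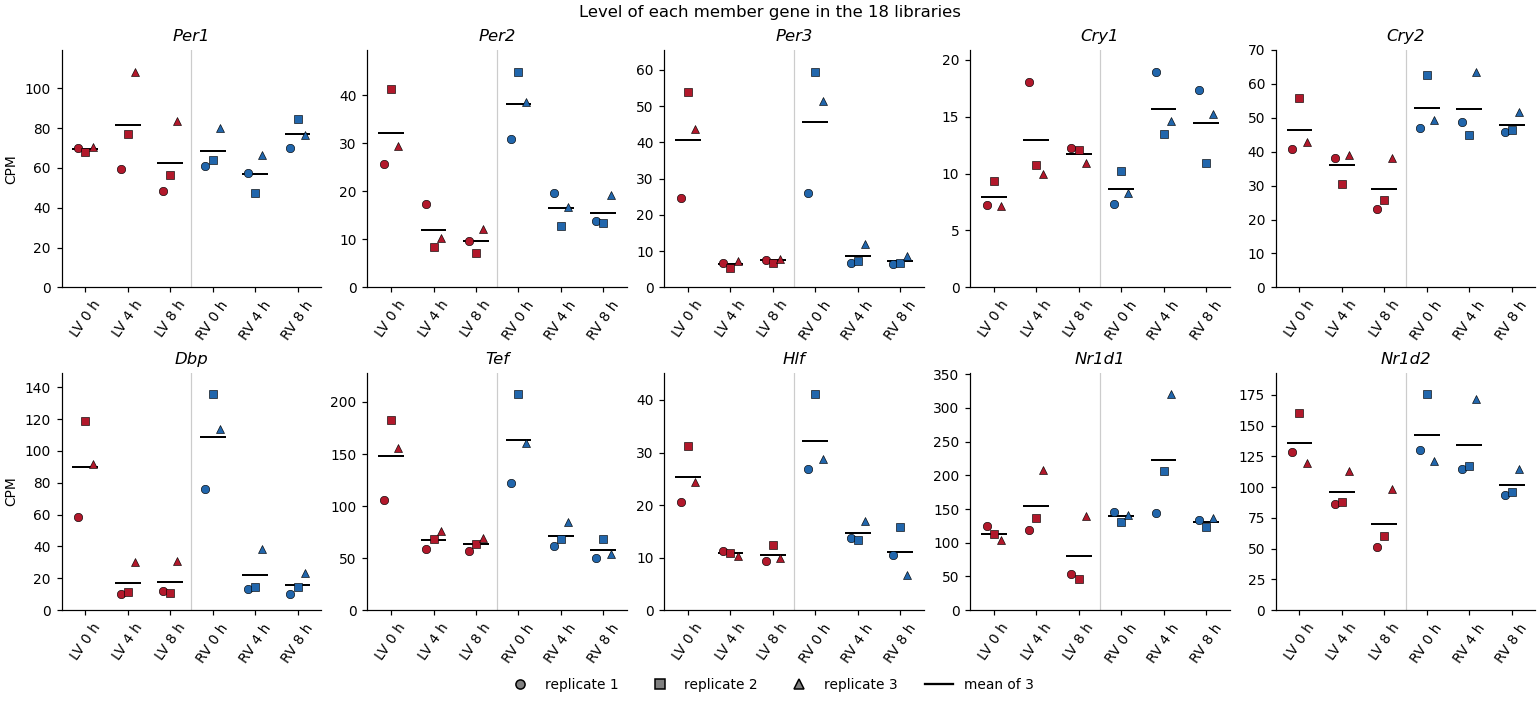
Each panel plots 1 member gene: the CPM of every library (linear axis from 0) by ventricle and storage time, LV in red and RV in blue, with the replicate number as the symbol and the mean of 3 as a bar. In Per2, Per3, Dbp, Tef and Hlf all stored libraries lie under the 0 h libraries, in Cry1 all lie above, and in Per1 and Nr1d1 the groups overlap.

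The REV-ERB genes did not follow as a pair. Nr1d2 measured 128.4, 159.9 and 119.9 CPM in LV at 0 h, 86.2, 87.6 and 113.3 CPM at 4 h, and 51.4, 60.0 and 98.7 CPM at 8 h, with no overlap between 0 h and either storage time. In RV, where it measured 130.0, 175.4 and 121.6 CPM at 0 h, the 4 h values were 115.0, 117.3 and 171.5 CPM and the 8 h values 94.0, 96.0 and 114.4 CPM. There replicate 3 at 4 h lay among the 0 h libraries, and the other 5 stored libraries lay under them. In LV its log2 change was -0.51 (SE 0.24) and then -0.95 (0.24), against -0.06 (0.22) and -0.47 (0.23) in RV. Nr1d1 measured 124.5, 112.5 and 103.9 CPM in LV at 0 h, 119.2, 136.7 and 207.7 CPM at 4 h, and 53.1, 46.9 and 139.8 CPM at 8 h. In RV it measured 146.3, 130.2 and 141.1 CPM at 0 h, 143.7, 206.1 and 320.2 CPM at 4 h, and 133.3, 124.1 and 136.8 CPM at 8 h. The highest library at 4 h was replicate 3 in both ventricles, and the changes of Nr1d1 from 0 h lay between -0.50 (SE 0.39) in LV at 8 h and 0.70 (0.26) in RV at 4 h.

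The cryptochromes moved in different directions. Cry1, the stronger repressor of the pair, measured 7.27, 9.35 and 7.12 CPM in LV at 0 h, 18.1, 10.8 and 9.93 CPM at 4 h, and 12.3, 12.1 and 10.9 CPM at 8 h. In RV it measured 7.34, 10.2 and 8.33 CPM at 0 h, 19.0, 13.5 and 14.6 CPM at 4 h, and 17.3, 10.9 and 15.2 CPM at 8 h. It was the member whose stored libraries all lay above those of 0 h, by 0.71 (SE 0.23) and 0.58 (0.23) on the log2 scale for LV and by 0.88 (0.22) and 0.76 (0.22) for RV. Cry2 measured 40.8, 55.7 and 42.8 CPM in LV at 0 h against 38.2, 30.6 and 39.1 CPM at 4 h and 23.1, 25.6 and 38.1 CPM at 8 h. Neither storage time overlapped with 0 h, and the 4 h and 8 h groups overlapped with each other. In RV its 0 h values of 47.0, 62.7 and 49.3 CPM overlapped those of both storage times, with log2 changes of 0.00 (SE 0.18) and -0.13 (0.18). Per1, a period gene that also answers to glucocorticoid and cAMP signals, overlapped with 0 h at both times in both ventricles, with values from 47.3 to 108.4 CPM over all libraries.

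Counted by the call rule, 5 members (Per2, Per3, Dbp, Tef and Hlf) were lower at 4 h in LV, where 0.398% of all genes tested were called lower, and the same 5 with Nr1d2 at 8 h, where 1.26% were. The same 5 were called lower in RV at 4 h and at 8 h, where the shares over all genes were 3.91% and 5.26%. Cry1 alone was called higher, in RV at both times, where 6.17% and 13.0% of all genes were. No member was called higher in LV, where the shares were 2.40% at 4 h and 5.46% at 8 h. These counts restate the changes by which the genes were chosen. The median log2 change of the 10 members was -0.81 and -1.09 for LV, -0.68 and -0.88 for RV, and that of all genes tested lay between -0.07 and 0.00.

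**Figure D2:**
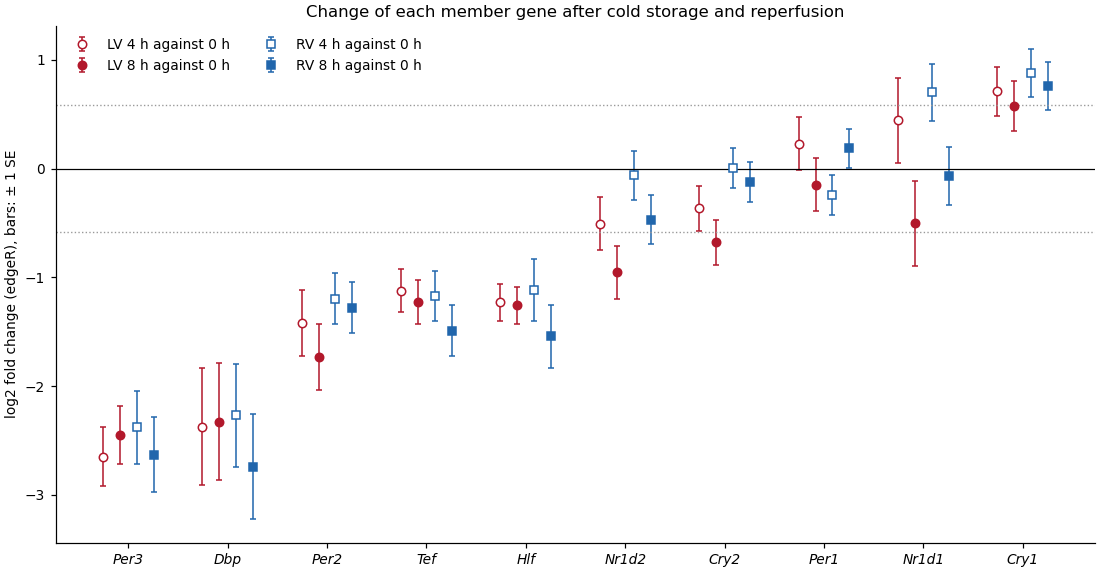
The fitted log2 fold change from 0 h (vertical axis, ± 1 SE) of each member, LV as red circles and RV as blue squares, open at 4 h and filled at 8 h. Dotted lines mark a fold change of 1.5. Per3 and Dbp lie lowest, between -2.27 and -2.74, and Cry1 lies above 0 throughout.

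The counts leaned on single libraries. Without LV replicate 2 at 0 h, the highest 0 h library of 8 members, Per3 alone was called lower at 4 h in LV and 3 members at 8 h, and without RV replicate 2 at 0 h Per3 alone was called at 4 h in RV. Without LV replicate 3 at 0 h 2 members were called at 4 h in LV, without any 1 of the LV libraries at 4 h 3 members were, and without RV replicate 3 at 0 h 3 members were called at 4 h in RV. In RV at 8 h the same 5 were called whichever library was left out. The call of Cry1 was lost at 4 h in RV without any 1 of the 0 h libraries, and at 8 h without replicate 1 or 3 of 0 h or of 8 h.

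The hearts also differed in Ddx3y, a gene of the Y chromosome. It measured between 1.47 and 2.44 CPM in 6 libraries, namely both ventricles of replicate 2 at 0 h and of replicate 3 at 4 h and at 8 h, and between 62.1 and 115.2 CPM in the other 12. The library low in Ddx3y was the highest of its group in 45 of the 60 combinations of a member and a group. Both ventricles of a heart enter this count, and the same share over all genes was not counted, so nothing particular to the members is read from it. Within the low libraries, 1 at each storage time, the log2 changes of Per3 were -2.86 and -2.78 (LV) and -2.33 and -2.77 (RV), and within the others, 2 against 2, they were -2.46 and -2.19 (LV) and -2.38 and -2.48 (RV). For Dbp the change was -1.99 and -1.94 in LV within the low libraries and -2.74 and -2.69 within the others. The low class holds 1 library against 1, and these are the changes by which the genes were chosen, so the values are given as a description. The sign differed between the low libraries and the others for Nr1d1 at 8 h (0.31 and -1.19 in LV, 0.07 and -0.16 in RV). It also differed for Per1 in LV (0.67 and -0.06 at 4 h, 0.29 and -0.43 at 8 h) and in RV at 4 h (0.05 and -0.42), and for Cry2 in RV at 4 h (0.02 and -0.04). The part of Ddx3y status in the levels of the members was not tested.

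Between 8 h and 4 h of storage no member was called in LV or RV, and no gene was over the whole test (0.00% called in LV and 0.00% in RV). Before adjustment 1180 of 14564 genes in LV and 961 of 14622 in RV had a p under 0.05 by the same edgeR test, among them 1 and 2 members. Nr1d1 showed the largest differences, falling by 0.95 (SE 0.39) in LV and by 0.77 (0.26) in RV on the log2 scale, with adjusted p of 0.603 and 0.599. The RV libraries of Nr1d1 at 8 h all lay under those at 4 h, as did those of Nr1d2, and the LV libraries of both genes overlapped. Those of Per1 in RV at 8 h (69.9 to 84.5 CPM) all lay above those at 4 h (47.3 to 66.6 CPM), and its LV libraries overlapped. Per3, Dbp, Per2, Tef and Hlf differed between 8 h and 4 h by at most 0.47 on the log2 scale in either ventricle.

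Between the ventricles, the members were lower in LV more often than higher. At 0 h 9 of the 10, all except Per1, had a lower fitted level in LV, with a median log2 difference of -0.18 beside -0.01 over all genes. At 8 h the differences parted. Cry2 measured 23.1, 25.6 and 38.1 CPM in LV and 45.8, 46.3 and 51.8 CPM in RV, and all LV libraries lay under all RV libraries. The same held for Per2, with 9.59, 7.25 and 12.2 CPM in LV and 13.8, 13.3 and 19.3 CPM in RV. Nr1d1 and Nr1d2 overlapped between the ventricles, because LV replicate 3, at 139.8 and 98.7 CPM, lay above all RV libraries of Nr1d1 and 2 of the 3 of Nr1d2.

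Treating the 18 libraries as unpaired, edgeR called no member at 0, 4 or 8 h, where 0.159%, 0.0133% and 0.0331% of all genes were called. Before adjustment 0, 2 and 3 members had a p under 0.05 by this edgeR test, beside 484, 446 and 1669 of the 15093 genes. DESeq2 called Cry2 at 8 h, where it called 1.25% of all genes. LV and RV of the same number deviated together in every pair, so that the test was also made within these pairs, taken as hearts. With the ventricles paired, no member was called at 0 h or 4 h, where 1.85% and 1.93% of all genes were. At 8 h 4 members were called lower in LV, where 6.53% of all genes were. Cry2 was lower by 0.76 on the log2 scale (SE 0.10, edgeR adjusted p = 0.000603 paired and 0.256 unpaired), and LV was the lower ventricle in 9 of 9 hearts over the 3 times. Per2 was lower by 0.68 (SE 0.11, edgeR adjusted p = 0.00174 paired and 0.389 unpaired), also in 9 of 9 hearts. Nr1d2 was lower by 0.59 (SE 0.11, edgeR adjusted p = 0.00313 paired and 0.421 unpaired), again in 9 of 9 hearts, with a fold change just past the threshold. Nr1d1 was lower by 0.90 (SE 0.22, edgeR adjusted p = 0.0138 paired and 0.467 unpaired), in 8 of 9 hearts and in 2 of the 3 at 8 h. The counts over 9 hearts include the pairs at 0 h and 4 h, and the share of all genes with such counts was not taken.

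**Figure D3:**
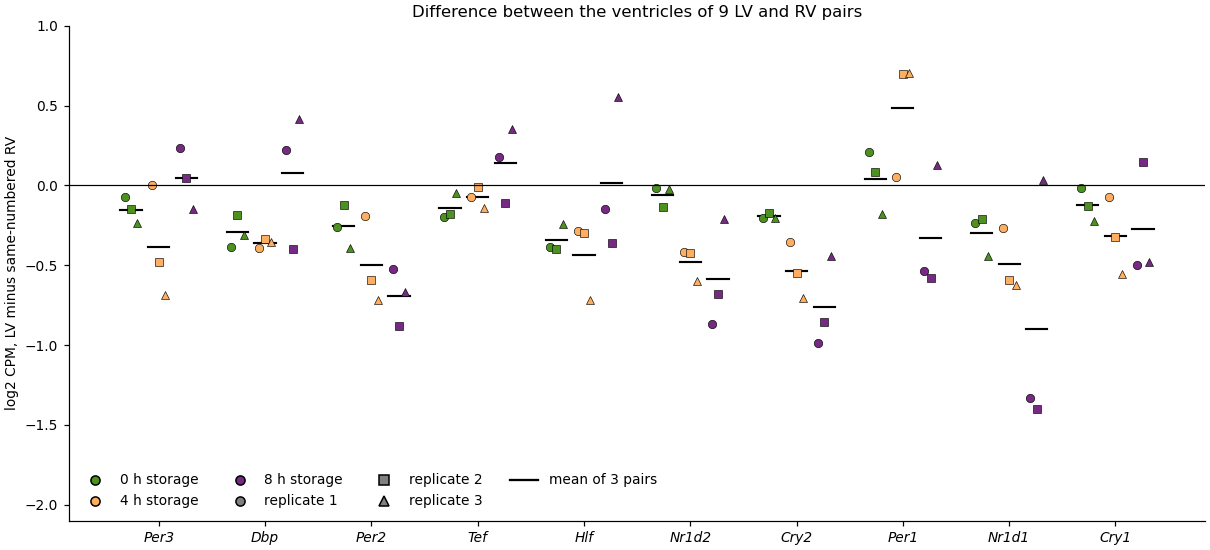
The log2 CPM of LV minus that of the same-numbered RV library (vertical axis) for each member, with 3 pairs at each storage time, coloured by time, and the mean as a bar. Cry2, Per2 and Nr1d2 lie under 0 in all 9 pairs, and Nr1d1 at 8 h has 2 pairs near -1.4 and 1 at 0.03.

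In the same paired test at 4 h, Cry2 (-0.54, SE 0.10, edgeR adjusted p = 0.0210), Per2 (-0.48, SE 0.11, 0.0418) and Nr1d2 (-0.48, SE 0.10, 0.0401) passed the adjusted p and missed the fold change. Tef, Dbp, Per3 and Hlf, which had fallen in both ventricles, showed paired differences at 8 h of 0.14, 0.10, 0.05 and -0.02, none called, with an SE of at most 0.15. Left out 1 heart at a time, Cry2 and Per2 remained called at 8 h in all 9 fits. Nr1d1 was lost without the pair of replicate 1 at 8 h, and Nr1d2 was called in the fit without the pair of replicate 3 at 8 h and in none of the other 8. Without the pair of replicate 1 at 4 h, 4 members were called at 4 h, Per1 higher in LV and Per2, Per3 and Cry2 lower. The share of all genes called in that fit was not counted.

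A further comparison, of the change in LV with the change in RV, asks whether storage moved a gene more in 1 ventricle. For the members it is built from the changes by which they were chosen, so their p here are a description. The unpaired test called no member and no gene for the change to 4 h or to 8 h (0.00% each), with 158 and 628 genes and no member under an unadjusted p of 0.05. The paired test called no member either, where 0.305% and 5.71% of all genes were called. Cry2 came closest, with a change to 8 h that was lower in LV than in RV by 0.57 on the log2 scale (SE 0.14, edgeR adjusted p = 0.0318), followed by Nr1d2 at 0.53 (SE 0.15, 0.0580), and both missed the fold change of 1.5. For Per3, Dbp, Tef and Hlf the paired difference in the change to 8 h was between 0.20 and 0.39, with adjusted p from 0.176 to 0.491. Without the pair of replicate 3 at 8 h, 4 members were called (Per1, Cry2, Nr1d1 and Nr1d2), and without that of replicate 2 Dbp was. The shares of all genes called in these fits were not counted, so nothing particular to the members is read from this.

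Transcripts within the genes were estimated by the authors' pseudoalignment, and shares of genes with few counts are coarse. Per2 consisted of Per2-201 alone in every library, and Cry1 of Cry1-201 to at least 98.5%. Tef was carried by a pair of protein-coding transcripts with different starts, Tef-202 (chr15:81802421-81826863, plus strand, GRCm38) and Tef-201 (chr15:81811414-81826698), whose upstream bases with the E-box are printed above. Tef-202 made up between 40.6% and 55.6% of Tef in the 12 libraries of replicates 1 and 2, and between 53.7% and 83.5% in the 6 of replicate 3. It was highest in the pair of replicate 3 at 8 h, with 78.0% in LV and 83.5% in RV. In that heart Tef-201 stood at 7.15 CPM in LV and 3.57 CPM in RV, against 19.9 and 25.5 CPM in LV and 20.1 and 29.4 CPM in RV of the other 8 h libraries. Both transcripts were lower in every stored library than in any 0 h library of its ventricle, except that Tef-202 in LV replicate 3 at 8 h (54.0 CPM) stood above LV replicate 1 at 0 h (49.1 CPM).

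Dbp was mostly Dbp-201, at 77.7% to 87.6% of its counts at 0 h and 55.5% to 82.6% after storage. The retained-intron transcript Dbp-202 (chr7:45707889-45709896, plus strand) took 0.583% to 3.73% of Dbp at 0 h and 3.97% to 14.9% after storage. It was picked because these ranges did not overlap, so the lack of overlap is a description. The other retained-intron transcript, Dbp-205, took 6.2% to 14.5% at 0 h and 4.34% to 20.9% after storage, with overlap. Over both ventricles Dbp-202 measured 0.537 to 2.56 CPM at 0 h and 0.524 to 2.34 CPM after storage. Dbp-201 went from 48.1 to 114.5 CPM down to 6.20 to 27.9 CPM. In RV at 4 h all Dbp-202 libraries (1.17 to 1.53 CPM) lay under those of 0 h (1.66 to 2.56 CPM). The stored values of Dbp-202 overlapped those of 0 h in RV at 8 h (1.51 to 2.29 CPM) and in LV at both times. Exons of Dbp share 539 bases, 18% of its exonic length, with Sphk2 on the opposite strand, those of Nr1d1 263 bases (8.55%) with Thra, those of Cry2 4.67% with D930015M05Rik and those of Tef 2.45% with Gm17597. The libraries were directional, and the counting is stated with default settings only, so reads in the shared bases are uncertain.

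**Figure D4:**
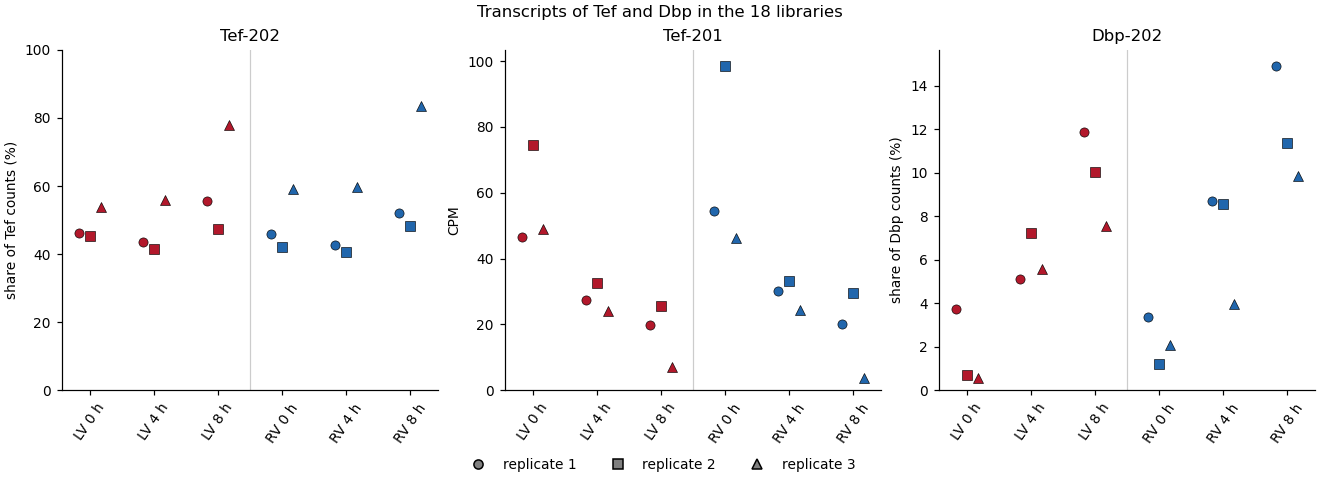
The share of Tef counts in Tef-202 (left, %), the level of Tef-201 (middle, CPM) and the share of Dbp counts in Dbp-202 (right, %) in each library by ventricle and storage time, symbols giving the replicate number. Replicate 3 at 8 h has the highest Tef-202 share (78.0% and 83.5%). Every stored library lies above the 0 h libraries in Dbp-202 share, the feature for which Dbp-202 was picked.

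The rest of the clock was read from 3 lists of 29 genes, of which all except Fbxl21 could be tested. These lists were chosen with earlier results of these data known, so their changes from 0 h and the p beside them are a description. Among 10 activators and competitors of the members, Arntl, Npas2 and Nfil3 rose and none was called lower. With the replicate number as a block, Ciart, which encodes a repressor of BMAL1 and CLOCK, was called lower at 8 h in LV (-1.35, SE 0.34, edgeR adjusted p = 0.0506) and in RV (-1.07, SE 0.40, 0.0940). In that fit Bhlhe40, whose product competes for E-boxes, was called higher in RV at 4 h (0.81, SE 0.16, 0.0229) and at 8 h (0.97, SE 0.16, 0.00684). The fit with the block called 2.48% of all genes lower at 8 h in LV and 8.81% in RV. It called 8.45% and 15.5% higher in RV at 4 h and 8 h. Across storage times the replicate number is not known to stand for anything shared, so the p of Ciart and Bhlhe40 are a description. Neither was called without the block, and both were named after their values were seen. Arntl, which encodes the E-box activator BMAL1, measured 7.33, 2.94 and 3.39 CPM in LV at 0 h, 19.5, 18.1 and 12.1 CPM at 4 h, and 20.1, 20.9 and 15.7 CPM at 8 h. In RV it went from 5.67, 1.76 and 2.12 CPM to 20.0, 18.4 and 11.6 CPM and to 18.3, 18.9 and 17.8 CPM. All stored libraries lay above those of 0 h, and the highest 0 h library in both ventricles was replicate 1, which was the lowest in Per3, Dbp, Tef and Per2. The log2 change of Arntl at 8 h was 2.04 (SE 0.34, edgeR adjusted p = 0.0191) in LV and 2.53 (0.41, 0.00619) in RV. Npas2, a partner of BMAL1, rose by 1.75 (SE 0.30, 0.0221) in LV and 1.89 (0.20, 0.00133) in RV at 8 h.

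Nfil3, which represses at the D-box where Dbp, Tef and Hlf activate, rose by 2.12 on the log2 scale at 4 h in LV (SE 0.37, edgeR adjusted p = 0.0383) and by 2.74 (0.28, 0.00306) and 2.54 (0.28, 0.00139) at 4 h and 8 h in RV. In LV at 8 h its change was 1.21 (SE 0.37, edgeR adjusted p = 0.103), short of the call. It measured 26.9, 11.6 and 10.1 CPM in LV at 0 h, 90.5, 57.2 and 63.9 CPM at 4 h and 30.9, 34.1 and 47.3 CPM at 8 h, and 69.5, 59.1 and 56.3 CPM in RV at 8 h. Clock, the other partner of BMAL1, was not called in any of the 4 comparisons.

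Of 14 genes for modifiers of clock proteins, 13 were tested, and 0, 1, 2 and 4 were called higher (LV at 4 and 8 h, then RV), none lower, beside 2.40%, 5.46%, 6.17% and 13.0% of all genes called higher. They were Timeless (LV and RV at 8 h), a gene of replication forks in mammals, Sirt1 and Sfpq (RV at both times), a deacetylase and an RNA-binding partner of PER, and Csnk1d (RV at 8 h), a kinase of PER proteins. Timeless measured 191.9 CPM in LV and 267.5 CPM in RV in replicate 3 at 8 h, against 42.0 to 70.1 CPM in the other 8 h libraries. Of 5 clock-controlled outputs, Wee1, a cell cycle kinase gene, was called lower in LV at 8 h (-0.67, SE 0.18, edgeR adjusted p = 0.0773) and Por, which encodes P450 reductase, higher in RV at 8 h (0.60, SE 0.17, 0.0471). Over the 3 lists together 3, 4, 5 and 8 genes were called, with median log2 changes of 0.10, -0.03, 0.11 and 0.13 (LV at 4 and 8 h, then RV). All except Wee1 were called higher, so that 3, 3, 5 and 8 of 28 stand beside those same shares of all genes, and nothing particular to the lists is read from these counts. Without LV replicate 2 at 0 h these counts fell to 0 at 4 h and 1 at 8 h in LV, without LV replicate 3 at 0 h to 0 and 2, without LV replicate 1 at 4 h to 0 and 2, and without LV replicate 3 at 4 h to 1 at 4 h. Without RV replicate 2 at 0 h, 5 were called in RV at 8 h.

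**Figure D5:**
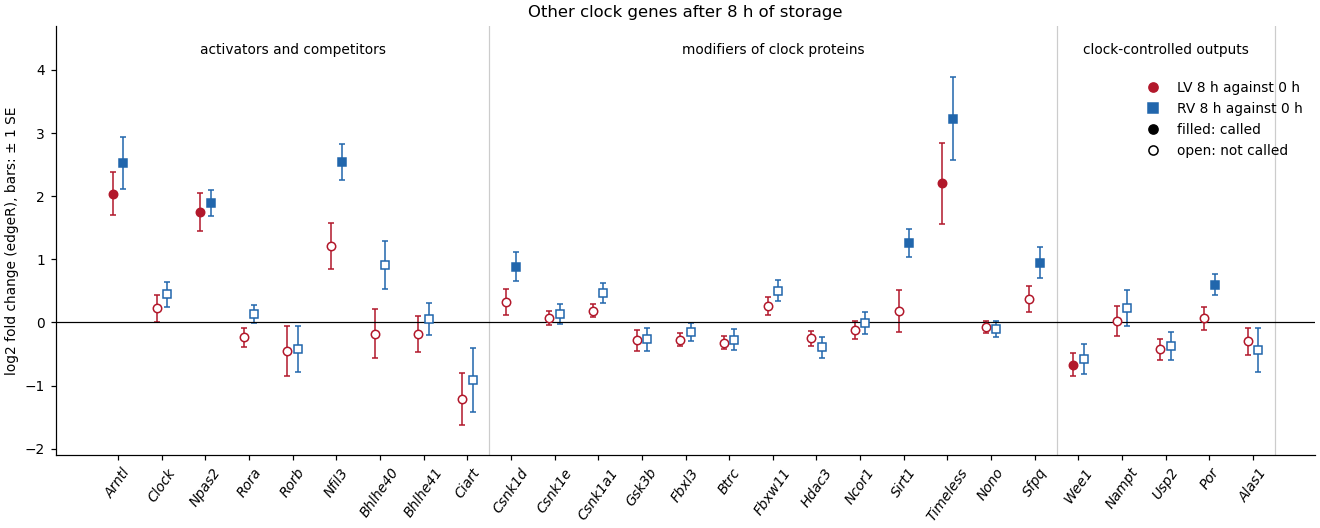
The fitted log2 change from 0 h to 8 h (vertical axis, ± 1 SE) of the tested genes of the other clock lists, except 1 that is not reported here, LV as red circles and RV as blue squares, filled where called. Arntl, Npas2 and Timeless were called higher in both ventricles, Nfil3 in RV alone, where LV stood at 1.21, and most other genes lie within 1 of 0.

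Likeness of profile was measured as the root mean square difference of log2 CPM over the 18 libraries, each gene centred on its own mean. Per3 and Dbp were each other's nearest genes among all tested (0.41), and Tef had Hlf as its nearest (0.25), while Hlf lay closer to Sema6c (0.22). Cry2 and Nr1d2 lay 0.18 apart, with Pdcd4 (0.16) and Dact1 (0.15) nearest to them. Per2 had Meox2 (0.35), Cry1 Arhgap23 (0.19), Per1 Gm4924 (0.22) and Nr1d1 Mlf1 (0.33). Nearest to the mean profile of the 10 members, outside them, were Atxn7l2 (0.22), Adamts7 (0.23), Slc27a1 (0.23), Rnf207 (0.24), Pfas (0.25), Dact1 (0.25), Setd1b (0.25) and Usp11 (0.26). The measure shrinks for genes that move little, so distances of Cry2 and Dbp are not on equal footing. The deviation from the group mean had the same sign in LV and RV of a heart in 9 of 9 hearts for Dbp and Nr1d2, in 8 for Cry2, and in 5 for Per1 and Hlf.

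Markers of the cell types in the ventricle were summed beside these values. The 6 cardiomyocyte genes summed to 53131 to 64478 CPM in LV and 54899 to 63574 CPM in RV at 0 h, to 52670 to 59556 and 55458 to 59131 CPM at 4 h, and to 39652 to 46711 and 26354 to 52274 CPM at 8 h. At 8 h 1 of these 6 was called lower in LV and none in RV, where 1.26% and 5.26% of all genes were. In LV the means of Myh6, Tnnt2, Actc1 and Ryr2 were lower at 8 h than at 0 h. Those of Myl2 and Myl3 were higher, at 4977 and 3954 CPM against 4666 and 3877 CPM. The 6 endothelial genes ranged from 601.0 to 923.1 CPM at 0 h and from 403.4 to 870.6 CPM after storage, the 6 fibroblast genes from 611.0 to 809.0 and from 611.0 to 1479 CPM, the 6 macrophage genes from 148.7 to 327.7 and from 135.8 to 403.5 CPM, and the 6 mural genes from 685.4 to 915.7 and from 627.1 to 1294 CPM. The 3 atrial genes summed to 7.11 to 252.4 CPM over all libraries. The 4 blood genes summed to at most 6.14 CPM at 0 h and to between 3.96 and 194.0 CPM after storage, and the 2 of 3 neutrophil genes that passed the filter to at most 0.0980 CPM and between 0.233 and 9.47 CPM. In the order LV at 4 and 8 h, then RV, 1, 1, 1 and 2 macrophage genes were called higher, beside 2.40%, 5.46%, 6.17% and 13.0% of all genes. At 8 h 1 fibroblast gene in RV and 2 blood and 2 neutrophil genes in LV were also called higher. In RV at 4 h 2 mural genes and 1 endothelial gene were called lower, where 3.91% of all genes were, and 1 mural gene at 8 h. The neutrophil genes were not tested in RV. The part of these markers in the levels of the members was not tested.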

How the data were processed

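Per the labels, total RNA of LV and RV from stored and reperfused hearts was made into directional libraries. The authors deposited estimated counts of 111462 transcripts per library, obtained by pseudoalignment to GRCm38 with Kallisto at default settings and not normalized between libraries, and beside them TPM, which the authors' software scaled for transcript length within each library. Here the counts of the 110203 transcripts found in GENCODE M21 were summed to genes and rounded, 1259 being left out, and TPM were summed for levels between genes. With R 4.3.3, genes passing filterByExpr were normalized by TMM and tested with edgeR 4.0.16 (quasi-likelihood), using the 9 libraries of a ventricle for storage (14564 genes in LV and 14622 in RV) and all 18 between ventricles (15093). Log2 CPM used a prior count of 2. DESeq2 1.42.0 and the other alternatives are given at the end. Counting error is small at this depth for the members, and tests rest on the spread between libraries.

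Whether replicate numbers pair the ventricles was checked. At each storage time, same-numbered LV and RV libraries deviated together, with a correlation across genes from 0.325 to 0.697 in all 9 pairs. They were treated as ventricles of 1 heart. The mean for other numbers was -0.258, a value that deviations from means of 3 libraries pull below 0. Same-numbered libraries of 1 ventricle at different times, which are not 1 heart, had a mean of 0.233 and reached 0.568. The check therefore cannot tell a shared heart from something else shared by the number. In simulated counts 84.5% of 200 genes changed 4-fold were recovered for LV at 8 h and 84% for RV.

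The members and gene lists were chosen with earlier results of these data known. The text names all members, Arntl, Nfil3, every other listed clock gene called after storage, the 8 genes nearest to the members' mean profile and the nearest gene of each member. Sphk2, Thra, Ddx3y and the marker lists were taken for checks. The mice are 12 weeks old in the labels, and the study's text differs on age. The authors' human, protein and hemodynamic data were not analysed here.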

Additional observations from a re-analysis of the deposited data

Results flagged for a closer look

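The change from 0 h to 8 h differed between LV and RV at an adjusted p under 0.1 in 9 named genes, by edgeR's interaction test with the ventricles of a heart paired. All 9 had a lower change in LV, but 5 of them (Sirt1, Sfpq, Csnk1d, Por and Nfil3) had been called higher at 8 h in RV and not in LV, and naming genes by such calls is a choice that favours this direction, so that nothing is read from it. Among the members the log2 difference was -0.57 for Cry2 (SE 0.14, adjusted p = 0.0318) and -0.53 for Nr1d2 (SE 0.15, adjusted p = 0.0580). Arntl, with -0.51 (SE 0.14, adjusted p = 0.0583), and Nfil3, with -1.26 (SE 0.25, adjusted p = 0.0117), stand among the activators and competitors. Of the modifiers and outputs, the differences were -0.56 for Csnk1d, -0.56 for Sfpq, -1.16 for Sirt1, -1.02 for Timeless and -0.52 for Por, with adjusted p from 0.00131 to 0.0291. Nfil3, Sirt1 and Timeless also passed the fold change. Outside the named genes and chosen after its values were seen, Bhlhe40 was called with -1.05 (SE 0.34, adjusted p = 0.0914). Over all genes the paired test called 5.71%, and the unpaired test found none of these 9 under an adjusted p of 0.1.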

How the results depend on the processing

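Direction did not reverse for any member in any storage comparison or alternative where the value was called. Under DESeq2, 1 member was called higher at 4 h in LV and 2 in RV, where 4.82% and 8.29% of all genes were. Between the ventricles at 8 h DESeq2 called 1 and pairing the ventricles (the replicate block) 4, beside 1.25% and 8.78% of all genes. Length offsets left 2 other clock genes called at 8 h in LV, and the replicate block gave 8 at 4 h in RV; across storage times same-numbered libraries share only a number (14 of 18 correlations over 0.1), and the block kept the counts of members called after storage within 1.5 times. Under the block, activators and competitors called went from 2 to 4 at 8 h in LV and from 3 to 5 at 8 h in RV, and modifiers from 2 to 4 at 4 h in RV. Of the other clock genes, pairing the ventricles called 1 and 3 between them at 4 h and 8 h and 4 in the LV against RV test of the 8 h change, against 0 unpaired. Leaving out 1 library at a time, members called lower ran from 1 to 5 at 4 h and from 3 to 8 at 8 h in LV, from 1 to 5 at 4 h and 5 throughout at 8 h in RV, and members called higher in RV from 0 to 1 at both times. Members called between the ventricles at 8 h ran from 0 to 3, the 3 without LV replicate 3. Other clock genes called ran from 0 to 4 and from 1 to 4 in LV, and from 4 to 7 and from 5 to 9 in RV. Leaving out whole hearts, a choice made after seeing the data, the paired counts ran from 0 to 4 at 4 h and from 2 to 4 at 8 h between the ventricles, and from 0 to 4 for the change to 8 h in LV against RV. The shares of all genes called with a library or heart left out were not counted, and the cause of these moves was not tested. RLE factors, no filter, no fold requirement, all 18 libraries in 1 fit, the 6 libraries of 1 time and leaving out mitochondrial genes kept each count within 1.5 times.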
